A study of Mus musculus with 6 samples.

Results

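Zfp genes carry the mouse name for zinc finger proteins, most of which are transcription factors that bind DNA through repeated C2H2 fingers. Every gene whose symbol is Zfp followed by a number and at most 1 lower-case letter was taken, which gave 313 of the 15705 genes in the table. The choice of genes within the table used the symbol alone. The genes were described in 2 groups of 3 RNA sequencing libraries of cultured mouse neurons. N40K neurons received the lentivirus FCK1.3GW-N40K, in which N40K is expressed behind the short CaMKII promoter, and control neurons received the vector FCK1.3GW, which carries EGFP behind the same promoter. In both groups the neurons came from cortex of C57BL/6 embryos at embryonic day 18, and virus was added at day 7 in vitro for 3 days. N40K is an N-terminal fragment of U1-70K, a protein of the U1 snRNP, and the series asks how disturbed U1 function alters splicing in neurons. The share of cells that expressed either construct is not given in the sources used here, and the labels do not say whether the 3 libraries of a group came from separate cultures, so p-values measure the spread between these libraries, which may be technical.

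Each C2H2 finger folds around a zinc ion held by a pair of cysteines and a pair of histidines, and neighbouring fingers read neighbouring bases of DNA. Many Zfp proteins also carry a KRAB domain, which recruits the corepressor Trim28 and through it enzymes that write repressive marks on histones and DNA. These genes arose in tandem arrays, and a typical member packs all its fingers into a single last exon behind a few short exons and longer introns. The U1 snRNP pairs with the 5′ splice site at the start of each intron.

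The measure was the Sd score, read here as splicing deficiency, a ratio given for each gene in each library by the authors. Scores of this kind divide the signal of unspliced RNA by that of spliced RNA from the same gene, so a higher score stands for less complete splicing. It is not an expression level, and a rise can come from a gain of unspliced RNA or from a loss of spliced RNA. A change within each cell also cannot be told apart from a change in the mix of cells. The words rose, fell and changed are used for an adjusted p under 0.05 (limma on log2(score + 0.01), 2-sided, Benjamini-Hochberg over all 15705 genes). Log2 changes are on that scale and understate the change of low scores, for which the N40K mean over the control mean, called the ratio, is also printed.

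The 5′ splice sites show what U1 meets in these genes. Windows of 30 bases, 10 of the exon and 20 of the intron, could be read for coding introns that another annotated transcript of GENCODE M21 (build GRCm38) reads through. These were 188 sites in 119 Zfp genes, out of 1209 coding introns. Printed here are the sites of those genes among the 12 largest rises and the 12 largest falls that had such a site, with 1 rising gene left out, and the site of Zfp93, a rising gene that matches the consensus in full. Capitals mark the 9 bases of the splice site, 3 of the exon and 6 of the intron, on the gene's own strand.

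Zfp667 (score rose), chr7:6293932-6293961, plus strand: tggggtcCTGGTGAGTgactgagaaccaag
Zfp398 (score rose), chr6:47840638-47840667, plus strand: tatcccaAAGGTAATAccctacttctgggc
Zfp324 (score rose), chr7:12968912-12968941, plus strand: gactccaTAGGTAAAGgcctgagttgagtc
Zfp595 (score rose), chr13:67332447-67332476, minus strand: tgacatgGAGGTTGGTgcagggaacagcgc
Zfp93 (score rose), chr7:24271661-24271690, plus strand: caagttaCAGGTAAGTcgggttgcttcccc
Zfp473 (score fell), chr7:44737946-44737975, minus strand: accagtaCTGGTAAGTgggaggaggggccc
Zfp551 (score fell), chr7:12421788-12421817, minus strand: gcttggcCTGGTAAGTggatcctgccatta
Zfp846 (score fell), chr9:20588626-20588655, plus strand: gcctcagCAGGTAAGActgccaccactctc
Zfp365 (score fell), chr10:67897414-67897443, minus strand: tgagcatATGGTGAGTccccttccagtcag

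The site in Zfp93 holds all 9 letters of the consensus CAGGTAAGT, searched on the gene's strand only. The other full match lay in Zfp235, which was not called. The call of Zfp93 was weak, and held in 8 of the 17 alternative fits described below. It ended under all 3 scalings and without any single library except control 2. Zfp93 was named after its values were seen. Those in Zfp473, Zfp551 and Zfp846 hold 8 of them, that in Zfp667 holds 7, and those in Zfp398, Zfp324, Zfp595 and Zfp365 hold 6. Over all 188 sites the mean was 6.37 ± 1.02 matching letters (SD over sites), 187 sites began the intron with GT and 2 (1.06%) matched in full. The 33 sites of 22 genes whose score rose had 6.3 ± 1.05 matches, the 4 sites of 4 genes whose score fell had 7.5 ± 1.0, and the 151 sites of 93 genes that were not called had 6.36 ± 1.01. A G at the fifth intron base stood in 26 of the 33 sites (78.8%), in 4 of the 4 and in 121 of the 151 (80.1%). Rising genes and uncalled genes thus had near-equal means, and the falling genes rest on 4 sites. These are counts of letters, given with no test, and the introns chosen are those with a retained or alternative transcript on record.

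On the scores as deposited, more Zfp genes rose than fell, a balance that 2 of the 3 scalings given next turned round, and the share that rose was below that of all genes, which also depended on the scaling. Of the 313 genes, 51 rose (16.3%, against 21.5% of all genes), 13 fell (4.15%, against 4.11% of all genes) and 249 did not pass the test. In 81 Zfp genes each N40K score exceeded each control score (25.9%, against 33.6% of all genes), in 30 each N40K score was below each control score (9.58%, against 8.67% of all genes), and the groups overlapped in 202. The median log2 change was 0.07 over the Zfp genes and 0.06 over all genes, with 195 Zfp genes above 0 and 118 below. Rises reached at least 2-fold in 17 of the 51 genes and falls in 4 of the 13, and the median ratio of mean scores was 1.79 among the rises and 0.582 among the falls.

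**Figure D1:**
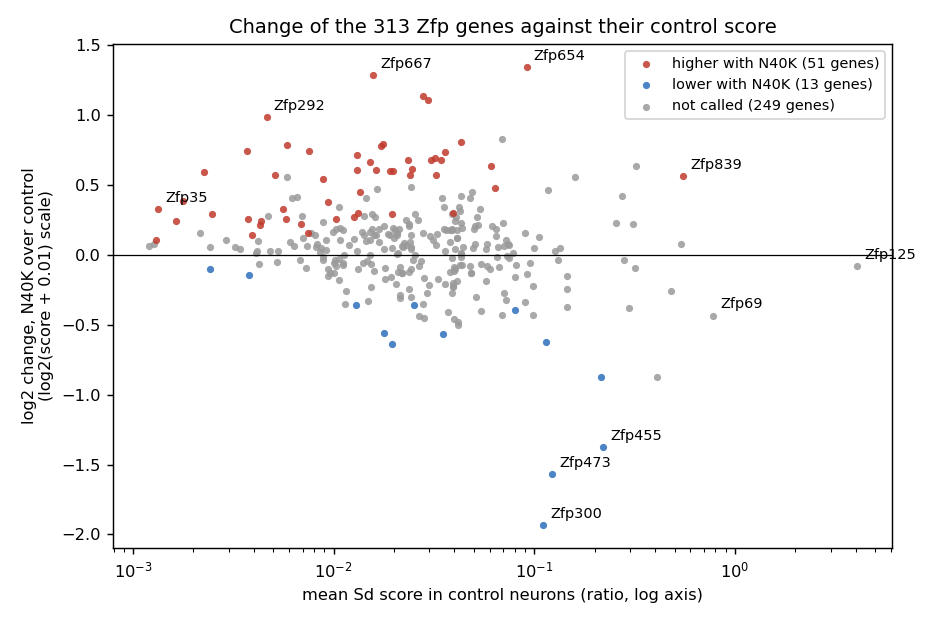
Log2 change of each of the 313 Zfp genes (N40K over control, on the log2(score + 0.01) scale) against its mean Sd score in control neurons on a log axis; 1 point is 1 gene, coloured by call. The 51 rises spread over control scores from 0.0013 to 0.55 (Zfp839), and the 3 deepest falls, Zfp300, Zfp473 and Zfp455, have control scores above 0.1.

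The balance of rises and falls depended on how libraries were scaled. With each library centred on its median score, 34 Zfp genes were higher (10.9%) and 40 lower (12.8%), against 9.75% and 18.4% of all genes, so that the Zfp share of rises was then above that of all genes. With quantile normalization 35 were higher (11.2%) and 37 lower (11.8%), against 12.9% and 12% of all genes. With each library centred on the median deviation of its genes, 44 were higher (14.1%) and 28 lower (8.95%), against 14.2% and 9.67% of all genes. Under these 3 scalings the median log2 change of the Zfp genes was -0.06, -0.05 and 0.01, beside -0.07, -0.02 and -0.01 for all genes. All 3 scalings moved the changes downward, so they test the rises only: 33 of the 51 rises kept their call under all 3. How many of the 3372 rises over all genes did so was not counted, so this cannot set the Zfp genes apart. The number of rises was 26 to 55 when 1 library was left out and 6 to 15 for falls. Rises numbered 55 without N40K library 1, 32 without N40K 2, 42 without N40K 3, 28 without control 1, 26 without control 2 and 27 without control 3. Falls numbered 8, 7, 15, 6, 9 and 7 in the same order. In that order 17.6%, 10.2%, 13.4%, 8.95%, 8.31% and 8.63% of Zfp genes rose. Over all genes 23.7%, 13.3%, 15.1%, 12.9%, 10.3% and 10.4% rose. Falls made up 2.56%, 2.24%, 4.79%, 1.92%, 2.88% and 2.24% of Zfp genes. Over all genes they made up 3.09%, 2.15%, 3.02%, 1.93%, 2.56% and 2.02%.

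Over all genes every N40K library had a higher median score (0.0146 to 0.0163) than every control library (0.0127 to 0.0136). The median Zfp score was 0.0248, 0.0267 and 0.0273 in the N40K libraries, against 0.0258, 0.022 and 0.0232 in the control libraries, so over the Zfp genes the groups overlapped. Means of these medians were 0.0263 ± 0.00131 in N40K neurons and 0.0237 ± 0.00194 in control neurons (SD, n = 3 each). Zfp scores were high for this table, whose median over all genes was 0.0154 ± 0.000854 with N40K and 0.0132 ± 0.000458 in control. The order of the 313 genes was close in any pair of libraries of the same group (Spearman's rho 0.944 to 0.977) and slightly less so between groups (0.903 to 0.928), as a description over genes. Scores were listed for 8 of 9 neuronal markers, 5 of 5 astrocyte, 4 of 5 microglial and 4 of 5 oligodendrocyte markers, which says nothing of their level. Syn1, Csf1r and Itgam rose and Mog fell among these, and the part of cell mix in the Zfp results was not tested.

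The rises with the largest log2 change were led by Zfp654 on chromosome 16. It scored 0.276, 0.224 and 0.244 in N40K neurons, against 0.0795, 0.104 and 0.0919 in control neurons (ratio 2.71, adjusted p = 0.00294). Zfp667, which represses transcription in heart cells of rodents, scored 0.0601, 0.0529 and 0.046 with N40K, against 0.0154, 0.0156 and 0.0163 in control. Its log2 change was 1.28 ± 0.10 (SE; ratio 3.36, adjusted p = 0.00183). In both genes the lowest N40K score was over 2 times the highest control score. Zfp808, on chromosome 13, scored 0.0611, 0.0886 and 0.0719 with N40K, against 0.0324, 0.0256 and 0.0256 in control (ratio 2.65, adjusted p = 0.00534). Zfp398 scored 0.0647, 0.0801 and 0.0791 with N40K, against 0.0327, 0.0242 and 0.0312 in control (ratio 2.54, adjusted p = 0.00415). Each of these 4 genes kept its call in every alternative fit that held it. There were 17 in all, and genes with low scores or overlapping another gene are absent from some. Zfp521 and Zfp804a, for example, were in 14. Here and below, every alternative means every fit that held the gene.

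Zfp292, which starts from a low score, had the largest ratio of means of the 51 rises. This transcription factor, whose human counterpart is mutated in intellectual disability, scored 0.0178, 0.0187 and 0.0203 with N40K, against 0.0053, 0.0045 and 0.0041 in control. The log2 change was 0.98 ± 0.06 (SE; ratio 4.09, adjusted p = 0.0013), and the call held in every alternative. Zfp758 scored 0.0159, 0.0204 and 0.016 with N40K, against 0.006, 0.0071 and 0.0045 in control (ratio 2.97, adjusted p = 0.00471). Zfp35 shows how the scale shortens low scores: it had 0.0042, 0.0038 and 0.0047 with N40K, against 0.0013, 0.0015 and 0.0012 in control, a ratio of 3.17 and a log2 change of 0.33 ± 0.03 (SE, adjusted p = 0.00229). Zfp780b scored 0.0268, 0.0272 and 0.0298 with N40K, against 0.0121, 0.0148 and 0.0124 in control (ratio 2.13, adjusted p = 0.00337), and Zfp595 averaged 0.0672 ± 0.00969 with N40K and 0.0361 ± 0.00353 in control (SD, n = 3 each, adjusted p = 0.00901). None of these groups overlapped, which held for all 51 rises, and the last 4 genes also kept their calls in every alternative.

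The calls of 4 other large rises ended without at least 1 library, while the changes kept their sign in these fits, which reuse the remaining libraries. Zfp39 averaged 0.0191 ± 0.00237 with N40K and 0.00757 ± 0.00302 in control (SD, n = 3 each, limma adjusted p = 0.0142), and the adjusted p was 0.0512 without control 1. Zfp87 averaged 0.0832 ± 0.0172 with N40K and 0.0429 ± 0.00523 in control (limma adjusted p = 0.0176), with 0.0582 without N40K 2, 0.0633 without control 2 and 0.0648 without control 3. Zfp324 averaged 0.0369 ± 0.00815 with N40K and 0.0172 ± 0.00384 in control (limma adjusted p = 0.0193), with 0.0637 without control 1 and 0.0655 without control 2. Zfp626 averaged 0.0388 ± 0.0134 with N40K and 0.0177 ± 0.00321 in control (limma adjusted p = 0.037), and its call ended without any single library except N40K 3 (adjusted p 0.0511 without N40K 2 to 0.115 without control 3, with 0.0525 without N40K 1, 0.0656 without control 1 and 0.107 without control 2). The log2 change with all libraries was 0.74 for Zfp39, 0.81 for Zfp87, 0.78 for Zfp324 and 0.79 for Zfp626. In the fits that lost the call it was 0.70 for Zfp39, 0.75 to 0.78 for Zfp87, 0.70 to 0.75 for Zfp324 and 0.73 to 0.92 for Zfp626. All 4 had N40K scores wholly above the control scores, which the choice of the largest rises required.

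**Figure D2:**
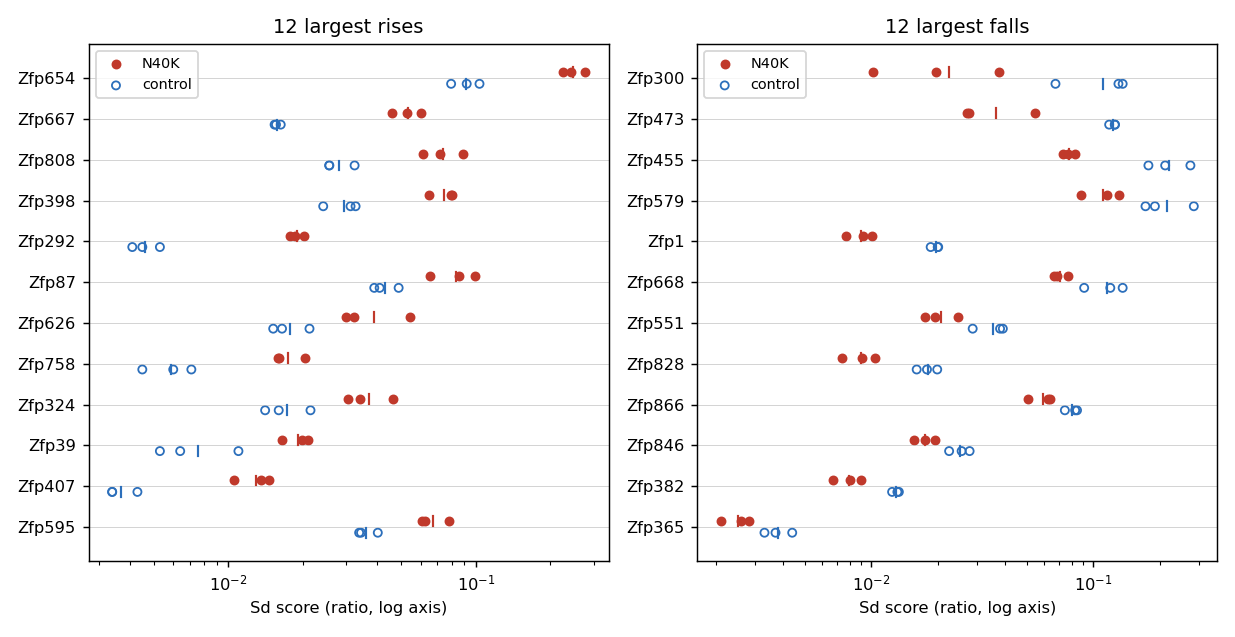
Sd score on a log axis in each library for the 12 largest rises (left panel) and the 12 largest falls (right panel) among called Zfp genes; filled points are N40K libraries, open points control libraries and ticks group means. Only genes whose 3 N40K scores and 3 control scores do not overlap were eligible, so the lack of overlap is a condition of the choice.

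The falls were fewer than the rises. The 13 genes that fell had a median mean score of 0.0205 with N40K and 0.0352 in control, and the 51 that rose had 0.0253 with N40K and 0.0132 in control. The call uses these same scores, so the order of the groups in either condition is partly set by it. Zfp473 scored 0.027, 0.0275 and 0.0544 in N40K neurons, against 0.125, 0.125 and 0.118 in control neurons. Its human counterpart ZNF473 takes part in processing of histone pre-mRNA with the U7 snRNP. The log2 change was -1.57 ± 0.23 (SE; ratio 0.296, adjusted p = 0.00747), and N40K library 3 stood about midway between the other N40K libraries and the control libraries on the log scale. Zfp455 scored 0.073, 0.0828 and 0.0766 with N40K, against 0.177, 0.274 and 0.211 in control (ratio 0.351, adjusted p = 0.00477). Zfp1 scored 0.0077, 0.0092 and 0.0101 with N40K, against 0.0199, 0.0185 and 0.02 in control (ratio 0.462, adjusted p = 0.00339). Zfp828, known as Champ1 for its part in the alignment of chromosomes at mitosis, averaged 0.00897 ± 0.0015 with N40K and 0.0179 ± 0.0019 in control (SD, n = 3 each, adjusted p = 0.00816). Zfp382 averaged 0.0079 ± 0.00115 with N40K and 0.0129 ± 0.000473 in control (SD, n = 3 each, adjusted p = 0.0107). These 5 falls held in every alternative.

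Zfp300, on the X chromosome, had the largest log2 fall, yet its libraries spread widely. It scored 0.0374, 0.0195 and 0.0102 with N40K, against 0.13, 0.136 and 0.0675 in control, a log2 change of -1.93 ± 0.39 (SE; ratio 0.202, adjusted p = 0.0184). The adjusted p was 0.0591 without N40K 2, 0.0607 without control 1 and 0.0648 without control 2, with log2 changes of -1.91 to -1.77 in these fits. The groups did not overlap, which the choice of the largest falls required.

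Of the other falls, several had a call that ended without most single libraries. Zfp579 averaged 0.111 ± 0.0213 with N40K and 0.215 ± 0.0601 in control (limma adjusted p = 0.0379), and without each library in turn the adjusted p was 0.0761, 0.102 and 0.0582 (N40K 1 to 3) and 0.0772, 0.0579 and 0.0734 (control 1 to 3). Zfp866 averaged 0.0591 ± 0.007 with N40K and 0.0805 ± 0.00537 in control (limma adjusted p = 0.0394), and the values in the same order were 0.0627, 0.0664, 0.0681, 0.113, 0.117 and 0.0696. Zfp668 averaged 0.0705 ± 0.00531 with N40K and 0.115 ± 0.0226 in control (limma adjusted p = 0.0311), with a call that held only without control 2 (0.0766, 0.0651 and 0.0853 without N40K 1, 2 and 3, and 0.0932 and 0.0791 without control 1 and 3). Zfp551 averaged 0.0205 ± 0.00368 with N40K and 0.0352 ± 0.00577 in control (limma adjusted p = 0.0291), with 0.0716 and 0.0867 without N40K 1 and 2 and 0.0925 and 0.0935 without control 2 and 3. Zfp846 averaged 0.0174 ± 0.0019 with N40K and 0.0252 ± 0.00266 in control (limma adjusted p = 0.0313), with 0.0721 and 0.0867 without N40K 1 and 2 and 0.0915 and 0.0944 without control 1 and 3. In the fits that lost the call the log2 change was -1.01 to -0.67 for Zfp579 (-0.88 with all libraries), -0.44 to -0.31 for Zfp866 (-0.39), -0.68 to -0.51 for Zfp668 (-0.62), -0.54 to -0.50 for Zfp551 (-0.57) and -0.36 to -0.31 for Zfp846 (-0.36). In these fits, which reuse the remaining libraries and so are no independent check, the changes kept their sign. All 5 genes had N40K scores wholly below the control scores, which the choice of the largest falls required.

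Zfp genes with long introns had low scores in control neurons and rose more often. Across 299 Zfp genes with an annotated coding transcript, Spearman's rho of total intron length was -0.439 with the control score and 0.268 with the log2 change, a description over genes that share libraries. Gene length gave -0.422 and 0.242, and the number of C2H2 fingers gave 0.1 and 0.036. Among 54 genes under 10 kb, 2 rose (3.7%, against 6.87% of all genes of that length) and 1 fell (1.85%, against 6.34%). Among 122 genes of 10 to 20 kb, 18 rose (14.8%, against 12.1% of all) and 7 fell (5.74%, against 5.42%). Among 89 genes of 20 to 50 kb, 12 rose (13.5%, against 21.5% of all) and 5 fell (5.62%, against 3.46%). Among 37 genes over 50 kb, 18 rose (48.6%, against 39.8% of all) and 0 fell, where 1.91% of all genes of that length fell. The relation with length is thus shared with the whole table, and no test sets the Zfp genes apart from it. The median Zfp gene spanned 16540 bases, of which 11730 were introns.

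**Figure D3:**
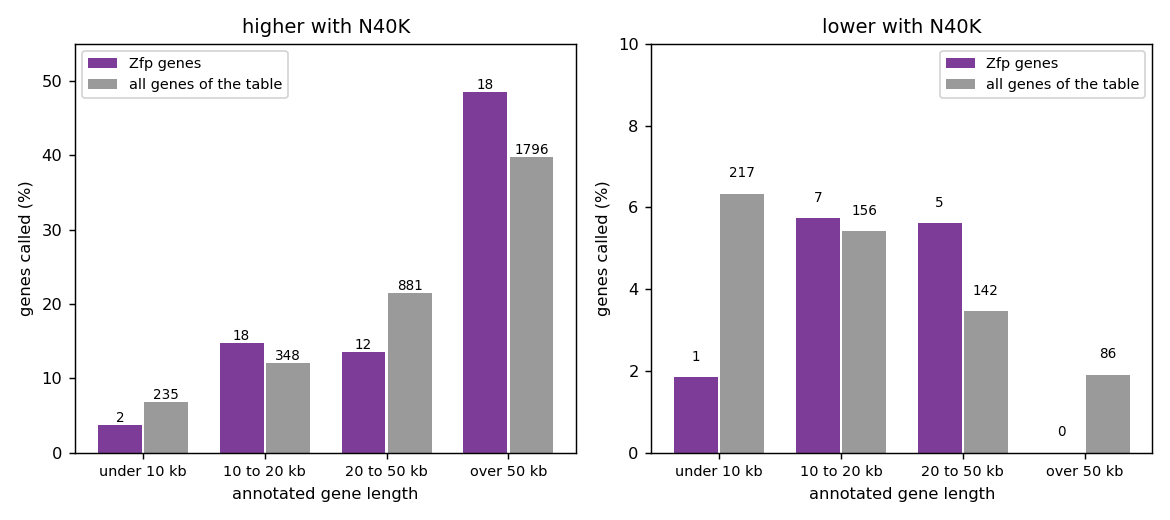
Percentage of genes called higher (left panel) and lower (right panel) with N40K in 4 classes of annotated gene length, for Zfp genes and for all genes of the table; numbers over the bars are counts of called genes. The share of Zfp genes called higher goes from 3.7% under 10 kb to 48.6% over 50 kb, beside 6.87% and 39.8% of all genes. No Zfp gene over 50 kb was called lower, beside 1.91% of all genes of that length.

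The longest Zfp gene, Zfp407, spans 461699 bases, and its human counterpart is mutated in a developmental disorder with intellectual disability. It scored 0.0106, 0.0146 and 0.0136 with N40K, against 0.0043, 0.0034 and 0.0034 in control (ratio 3.5, adjusted p = 0.00337). The second longest, Zfp385b, named after its values were seen, spans 409006 bases and encodes a protein with 4 fingers found here. It scored 0.004, 0.0062 and 0.006 with N40K, against 0.0017, 0.002 and 0.0016 in control (ratio 3.06, adjusted p = 0.00866). Both kept their calls in every alternative. Zfp521 and Zfp804a, long genes with 2 of the 3 lowest control scores, were not called: Zfp521 had 0.0015, 0.002 and 0.0022 with N40K, against 0.0015, 0.0011 and 0.0012 in control (adjusted p = 0.079), and Zfp804a had 0.0012, 0.0019 and 0.0021 with N40K, against 0.0012 in each control library (adjusted p = 0.159). Without N40K 1 both would be called higher, with adjusted p of 0.0213 for Zfp521 and 0.00626 for Zfp804a.

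The shares that rose were near equal with and without a KRAB-like stretch in the protein. Such a stretch was found in 137 of the 299 coding genes, of which 23 rose (16.8%, against 21.5% of all genes) and 7 fell (5.11%, against 4.11%). In the 162 without one, 27 rose (16.7%) and 6 fell (3.7%). The search misses divergent KRAB domains, so the second set still holds some. By number of fingers, 8 of 51 genes with 0 to 4 rose (15.7%), 9 of 86 with 5 to 9 (10.5%), 21 of 106 with 10 to 14 (19.8%) and 12 of 56 with 15 or more (21.4%). Of all genes, 21.5% rose. The protein with most fingers, Zfp142, had 37 and its gene was not called.

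Counts by position in the genome stand beside 21.5% of all genes that rose and 4.11% that fell. Another Zfp gene lay within 100 kb of 157 of the 302 annotated members, of which 22 rose (14%) and 8 fell, while 28 of the other 145 rose (19.3%) and 5 fell. Chromosome 7 held 76 members, with 10 rises (13.2%) and 6 falls (7.89%). Chromosome 17 held 34 members, with 2 rises (5.88%), Zfp758 and Zfp51, and 0 falls. Chromosome 18 held 10, with 5 rises and 0 falls, among them Zfp35 and the long genes Zfp407, Zfp532 and Zfp516, each over 50 kb, a length at which 39.8% of all genes rose. Related genes can share reads: in 18 members over 10% of the 100-base stretches of their transcripts also occur in another gene, and of these only Zfp59 was called, which makes its score uncertain. Zfp780b and Zfp808, which rose, lie just below that cut (9.53% and 9.46%), so the same doubt applies to them. Zfp808 also overlaps 3 annotated genes on its own strand and was absent from the fit without overlapping genes. In 222 members no stretch was shared, and 37 of those rose (16.7%) and 11 fell. A further uncertainty is that 132 members overlap another annotated gene, with 23 rises and 5 falls, and use of strand in counting is not given in the sources used here.

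The 3 highest control scores among Zfp genes were those of Zfp125, Zfp69 and Zfp839. Zfp125, annotated as a transcribed pseudogene, scored 3.95, 3.52 and 3.96 with N40K, against 4.39, 3.51 and 4.25 in control, the highest of all Zfp genes (adjusted p = 0.678). Zfp69, in which an intronic retrotransposon that cuts the transcript short has been described in C57BL/6 mice, scored 0.493, 0.55 and 0.675 with N40K, against 0.707, 0.671 and 0.967 in control (adjusted p = 0.149). In both the groups overlapped. Zfp839 came next and rose, at 0.731, 0.829 and 0.899 with N40K, against 0.548, 0.548 and 0.553 in control (ratio 1.49, limma adjusted p = 0.0144). The adjusted p was 0.0515, 0.0537 and 0.0508 without control 1, 2 and 3, with log2 changes of 0.56 to 0.57, against 0.56 with all libraries.

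Of 13 Zfp genes listed for proteins that act on RNA, 9 had a score, 2 rose (22.2%, near the 21.5% of all genes) and 0 fell (4.11% of all genes), with a median log2 change of 0.12 over the 9. Zfp207 encodes BuGZ, which binds the mitotic checkpoint protein BUB3 and interacts with splicing factors. It averaged 0.0174 ± 0.00176 with N40K and 0.0127 ± 0.0007 in control (SD, n = 3 each, limma adjusted p = 0.0321). Zfp106, an RNA-binding protein needed by motor neurons, averaged 0.0053 ± 0.000436 with N40K and 0.0039 ± 0.000458 in control (limma adjusted p = 0.0352). Both calls ended in several fits. For Zfp207 the adjusted p was 0.0912 and 0.0729 without N40K 2 and 3 and 0.0685, 0.1 and 0.1 without control 1, 2 and 3, and it was 0.0795 after median centring and 0.102 after quantile normalization. For Zfp106 it was 0.0921 and 0.0707 without N40K 2 and 3, 0.104 and 0.11 without control 1 and 3, and 0.916, 0.409 and 0.254 after median centring, quantile normalization and median deviation centring. In the fits without 1 library that lost the call, the log2 change was 0.23 to 0.30 for Zfp207 (0.27 with all libraries) and 0.12 to 0.15 for Zfp106 (0.14).

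The other 7 genes of that list had overlapping groups, with 1 exception. Zfp598, the ubiquitin ligase that marks collided ribosomes, had 0.0269, 0.0247 and 0.0246 with N40K, against 0.0203, 0.0202 and 0.0229 in control, with no overlap (adjusted p = 0.0939). Zfp326, a subunit of the DBIRD complex that links RNA polymerase II to splicing, averaged 0.0086 ± 0.000985 with N40K and 0.00707 ± 0.000643 in control (limma adjusted p = 0.149, n = 3 each). Zfp346, which binds double-stranded RNA, averaged 0.0331 ± 0.00351 with N40K and 0.0263 ± 0.00468 in control (limma adjusted p = 0.186, n = 3 each). Zfp318, needed for IgD expression in B cells, had a ratio of 1.17 (adjusted p = 0.392), and Zfp385a, which binds RNA, a ratio of 1.09 (adjusted p = 0.362). Zfp622, a factor in maturation of the large ribosomal subunit, and Zfp259, known as Zpr1 and a partner of the SMN protein, had ratios of 0.951 (adjusted p = 0.853) and 0.988 (adjusted p = 0.92). The small log2 changes of Zfp326, Zfp318 and Zfp385a are positive as deposited and negative after median centring.

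Among 18 scored genes of nervous system development and disease, 5 rose (27.8%, against 21.5% of all genes), 1 fell (5.56%, against 4.11%) and 12 were not called, with a median log2 change of 0.07, beside 0.06 for all genes. Beside Zfp292 and Zfp407, Zfp711 rose, at 0.0216, 0.0251 and 0.0293 with N40K, against 0.0125, 0.0137 and 0.0131 in control (ratio 1.93, adjusted p = 0.00821). It is linked to X-chromosomal intellectual disability in humans, and its call held in every alternative. Zfp462, a chromatin regulator with 34 fingers found here, averaged 0.00703 ± 0.00125 with N40K and 0.00437 ± 0.000351 in control (SD, n = 3 each, limma adjusted p = 0.031). Its adjusted p was 0.0841 and 0.0871 without N40K 2 and 3 and 0.0704, 0.0996 and 0.0916 without control 1, 2 and 3, and it was 0.108 and 0.0611 after median centring and quantile normalization. Zfp423, which is needed for the cerebellum to form, averaged 0.0022 ± 0.000458 with N40K and 0.0013 ± 0.000173 in control (limma adjusted p = 0.044). Its call held without N40K 1 and ended without each other library (0.099 and 0.116 without N40K 2 and 3, 0.0951, 0.13 and 0.102 without control 1, 2 and 3), quantile normalization (0.119) and median deviation centring (0.227) also ended it, and median centring turned its change negative (adjusted p = 0.595). The gene that fell was Zfp365, a partner of DISC1, with 0.0021, 0.0026 and 0.0028 with N40K, against 0.0044, 0.0037 and 0.0033 in control (ratio 0.658, limma adjusted p = 0.038). Its adjusted p was 0.0824, 0.0896 and 0.0611 without N40K 1, 2 and 3, and 0.0808, 0.095 and 0.0508 without control 1, 2 and 3. In the fits without 1 library that lost the call, the log2 change was 0.21 to 0.26 for Zfp462 (0.24 with all libraries), 0.09 to 0.12 for Zfp423 (0.11) and -0.17 to -0.11 for Zfp365 (-0.14).

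**Figure D4:**
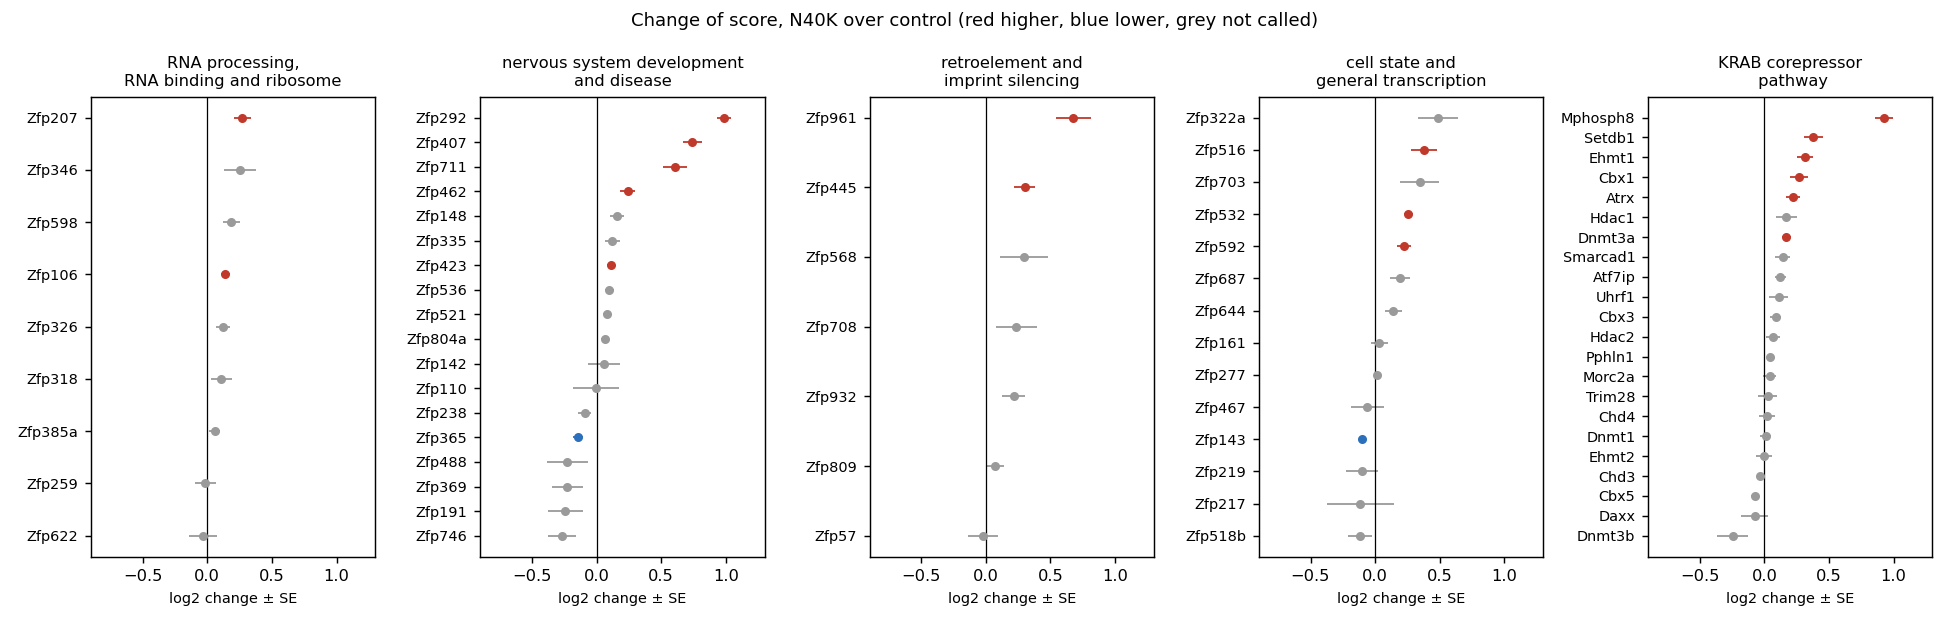
Log2 change (N40K over control, on the log2(score + 0.01) scale) of each scored gene in the 4 lists of Zfp genes by role and in the KRAB corepressor list, 1 point a gene, with a bar of 1 SE, coloured by call. On the scores as deposited, 18 of the called genes lie above 0 and 2 below. From left to right the lists hold 9, 18, 7, 14 and 22 scored genes. Called higher were 22.2%, 27.8%, 28.6%, 21.4% and 27.3% of them, beside 21.5% of all genes. Called lower were 0%, 5.56%, 0%, 7.14% and 0%, beside 4.11% of all genes.

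Genes that silence retroelements and keep imprints gave 2 rises among 7 scored members (28.6%, against 21.5% of all genes) and 0 falls (against 4.11%), with a median log2 change of 0.24. Zfp961 averaged 0.0611 ± 0.0108 with N40K and 0.0342 ± 0.00372 in control (SD, n = 3 each, limma adjusted p = 0.019), and its call ended without N40K 2 (0.0613), N40K 3 (0.0554), control 2 (0.0622) and control 3 (0.0667). Zfp445, a guardian of genomic imprints, averaged 0.0507 ± 0.00442 with N40K and 0.0392 ± 0.00215 in control (limma adjusted p = 0.046). Its adjusted p was 0.127 and 0.115 without N40K 2 and 3, 0.0949, 0.133 and 0.108 without control 1, 2 and 3, and 0.0671 to 0.129 under the 3 scalings. Without 1 library the log2 change in the fits that lost the call was 0.61 to 0.69 for Zfp961 (0.68 with all libraries) and 0.26 to 0.32 for Zfp445 (0.30). Zfp57, the other imprint factor of the list, had 0.0468, 0.0333 and 0.036 with N40K, against 0.0393, 0.04 and 0.0379 in control (adjusted p = 0.92), and Zfp809, which silences retroviruses, averaged 0.079 ± 0.000351 with N40K and 0.0747 ± 0.00329 in control (limma adjusted p = 0.489, n = 3 each).

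Of 14 scored genes for cell state and general transcription, 3 rose (21.4%, near the 21.5% of all genes), 1 fell (7.14%, against 4.11%) and 10 were not called, with a median log2 change of 0.09. Zfp532 rose firmly, at 0.0083, 0.0091 and 0.0092 with N40K, against 0.0057, 0.0055 and 0.0062 in control (ratio 1.53, adjusted p = 0.00692, called in every alternative). Zfp592, its partner in a complex with ZMYND8, averaged 0.0097 ± 0.00118 with N40K and 0.0069 ± 0.000458 in control (SD, n = 3 each, limma adjusted p = 0.0341). It lost its call without N40K 1 and 2 (0.0648 and 0.0987), without control 1, 2 and 3 (0.075, 0.0919 and 0.111) and under the 3 scalings (0.135 to 0.388). Zfp516, a factor of brown fat, averaged 0.0152 ± 0.00243 with N40K and 0.0094 ± 0.00171 in control (limma adjusted p = 0.0415), with 0.118 and 0.112 without N40K 2 and 3, 0.0593, 0.113 and 0.107 without control 1, 2 and 3, and 0.0606 and 0.0694 after median centring and quantile normalization. Zfp143, an activator of small nuclear RNA genes, fell, with 0.0015, 0.0018 and 0.0015 with N40K, against 0.0026, 0.0022 and 0.0025 in control (ratio 0.658, limma adjusted p = 0.0151), and 0.0513 and 0.059 without control 1 and 3. Without 1 library the log2 change in the fits that lost the call was 0.18 to 0.24 for Zfp592 (0.22 with all libraries), 0.31 to 0.44 for Zfp516 (0.38) and -0.10 to -0.09 for Zfp143 (-0.10).

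The partners through which KRAB zinc finger proteins repress were read from a list of 23 genes, of which 22 had a score, 6 rose (27.3%, against 21.5% of all genes) and 0 fell (against 4.11%). Trim28, the corepressor that binds KRAB domains, had 0.344, 0.329 and 0.332 with N40K, against 0.326, 0.324 and 0.335 in control, with overlapping groups (adjusted p = 0.836). Mphosph8, a subunit of the HUSH silencing complex, had 0.0398, 0.0386 and 0.0409 with N40K, against 0.0171, 0.0144 and 0.0171 in control (ratio 2.45, adjusted p = 0.00183, called in every alternative). Setdb1, which methylates histone H3, averaged 0.0181 ± 0.00223 with N40K and 0.0115 ± 0.000252 in control (SD, n = 3 each, limma adjusted p = 0.0157), with 0.053 without N40K 2 and 0.0513, 0.0566 and 0.0597 without control 1, 2 and 3. Ehmt1, another histone methyltransferase, averaged 0.0056 ± 0.00131 with N40K and 0.0025 ± 0.000173 in control (limma adjusted p = 0.0171), with 0.0572 without N40K 2 and 0.0534, 0.063 and 0.0593 without control 1, 2 and 3. The DNA methyltransferase gene Dnmt3a had a ratio of 1.36 (limma adjusted p = 0.0203), with 0.0615 without N40K 2, 0.0681, 0.065 and 0.0716 without control 1, 2 and 3, and 0.0501 to 0.383 under the 3 scalings. The other 2 genes that rose were Cbx1, a heterochromatin protein, and Atrx, a chromatin remodeller. Cbx1 had a ratio of 1.33 (limma adjusted p = 0.0354), with 0.0813, 0.0949 and 0.0709 without N40K 1, 2 and 3, 0.0581, 0.091 and 0.0891 without control 1, 2 and 3, and 0.0689 to 0.212 under the 3 scalings. Atrx had a ratio of 2.2 (limma adjusted p = 0.0331), with 0.0851 without N40K 2, 0.0912, 0.0904 and 0.0984 without control 1, 2 and 3, and 0.117 after median centring. Without 1 library the log2 change in the fits that lost the call was 0.35 to 0.39 for Setdb1 (0.38 with all libraries), 0.31 to 0.32 for Ehmt1 (0.32), 0.17 for Dnmt3a (0.17), 0.22 to 0.31 for Cbx1 (0.27) and 0.22 to 0.23 for Atrx (0.22).

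Other families of zinc finger genes are small, and their counts stand beside 21.5% of all genes that rose and 4.11% that fell. Of 32 Zbtb genes, which pair fingers with a BTB domain, 4 rose (12.5%) and 2 fell (6.25%), with a median log2 change of 0.12. Of 17 Zscan and Zkscan genes, 5 rose (29.4%) and 0 fell, with a median of 0.27, and of 13 Klf genes, 4 rose (30.8%) and 0 fell, with a median of 0.10. The difference of these families from the Zfp genes was not tested.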

How the data were processed

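The authors deposited 1 table of Sd scores, a linear ratio for each of 15705 genes in each of 6 libraries, per the file headers. Libraries were made from poly(A) RNA with a stranded kit and sequenced as paired reads of 100 nt, per the labels' protocols. CASAVA, STAR, BWA, bedtools 2.16.1 and the build mm9 are named, per the submitters' processing notes. How the score was calculated, on which annotation and after which filters, is not given in the sources used here; nor are read totals, so the depth is unknown and intervals based on counts cannot be printed. Scores have 4 decimals, the lowest being 0.0001, which limits the precision of low scores; 35 Zfp genes scored under 0.01 in all libraries.

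Log2(score + 0.01) was fitted with limma 3.58.1 in R 4.3.3 (lmFit, eBayes with trend) over all genes, 2-sided, with Benjamini-Hochberg adjustment and a threshold of 0.05. The filter, a score above 0 in at least 3 libraries, removed 0 genes. The fit was also run on simulated scores with independent noise and no shift between libraries. That run cannot test the effect of scaling. The members and lists were chosen with earlier results of these data known.

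Named by rule were, among called Zfp genes without overlap of groups, the 12 with the largest rise and the 12 with the largest fall, the listed RNA genes, called members of the other lists (at most 6 each, and for KRAB corepressors Trim28, Setdb1 and at most 4 more), the 3 highest and 3 lowest control scores, and the 6 smallest p; others were named after their values were seen. Gene features came from GENCODE M21 (GRCm38), matched by gene identifier for 302 Zfp genes, 299 with a coding transcript; 11 had no match. GRCm38 coordinates are printed for splice sites only and were not converted from mm9. Fingers were counted as C, 2 to 4 residues, C, 12 residues, H, 3 to 5 residues, H in the longest coding sequence. Splice sites of chromosome 18 were not used.

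The alternatives were pseudocounts of 0.001 and 0.1, no pseudocount with mean scores of at least 0.002, no filter, no genes in the lowest 25%, 3 scalings, the replicate number as a block, eBayes without trend, no overlapping genes, and each library left out.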

Additional observations from a re-analysis of the deposited data

How the results depend on the processing

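Of the 17 alternatives, not every gene was in each. In all fits that held the gene, 20 of the 51 Zfp rises and 5 of the 13 falls kept their call. Without each single library, 22 and 5 did so. The same counts over all genes were not made, so these cannot set the Zfp genes apart. Of the 54 named genes, 42 were called, and 18 of these were called the same way in every alternative that held them. Rises numbered 44 to 53 (15.1% to 16.9%, against 16.7% to 22.3% of all genes) with other pseudocounts, filters or trend settings. They numbered 26 to 55 (8.31% to 17.6%, against 10.3% to 23.7%) with a library left out. Falls numbered 11 to 13 (3.51% to 4.19%, against 3.43% to 4.19%) and 6 to 15 (1.92% to 4.79%, against 1.93% to 3.09%). Where a library left out leaves an uneven design, limma pools the spread over groups.

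Median centring gave 40 falls and a Zfp median of -0.059, quantile normalization 37 falls and -0.048, and median deviation centring 28 falls, while the median of all genes moved by over 0.1 under median centring alone, to -0.071 against 0.06 as deposited. Without overlapping genes, 25 of 170 rose (14.7%, against 15.8% of all genes) and 8 fell (4.71%, against 3.6%), with fewer genes tested. With the replicate number as a block, 30 rose (9.58%, against 11.3% of all genes) and 7 fell (2.24%, against 2.09%). Deviations of libraries of the same number had Pearson's r over genes of -0.0712, 0.0376 and -0.0201. Between unlike numbers r ran from -0.0431 to 0.0642. The labels do not say whether libraries of the same number were prepared together, and these values cannot decide it. The block also ended the calls of Zfp324 (adjusted p = 0.0726), Zfp839 (0.0535) and Zfp143 (0.0685), among others; the cause was not tested.

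Signs turned for 9 named genes, of which Zfp423 alone was called. Under median centring the log2 change was -0.007 for Zfp326, -0.023 for Zfp318, -0.071 for Zfp385a, -0.020 for Zfp423, -0.104 for Trim28, -0.064 for Zfp804a and -0.052 for Zfp521. Under quantile normalization it was -0.017 for Zfp318, -0.056 for Zfp385a and -0.048 for Trim28, and under median deviation centring -0.006 for Zfp385a and -0.039 for Trim28. With a library left out it lay between -0.121 (without control 2) and 0.034 (without control 3) for Zfp622, which was also positive without N40K 1 and N40K 2, and between -0.058 (without N40K 3) and 0.030 (without control 1) for Zfp259, also positive without N40K 1. Unknown depth and the 4 decimals limit genes with low scores.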
